A study of Sus scrofa with 6 samples.

Results

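The genes described here encode the core proteins of the spliceosome. They were chosen by name: a row of the deposited abundance table was taken when its gene symbol began with SF3A, SF3B, SNRNP or PRPF and a digit, with SNRP or with U2AF, or was one of LSM1 to LSM8. This gave 42 of the 17678 rows. Of these, 41 reached a mean value of 10 across the 6 libraries and were tested among 11986 genes. SF3B5 was the member below that level. The table leaves 3575 rows without a name, and 6 of those carry a symbol of the same kind in the RefSeq annotation, so they are given apart from the members.

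Porcine MII oocytes of crossbred animals were matured in vitro, injected with siRNA and activated without sperm. The NC group received a negative control siRNA and the KD group received 3 siRNAs against SIN3A, the scaffold of a histone deacetylase complex. Both groups were collected as parthenogenetic 2-cell embryos at 32 h after activation, in 3 libraries per group made from 20 pooled embryos each. The question was how messenger RNA of these embryos differs when SIN3A is depleted, at a stage before the major activation of the pig embryonic genome. Because the embryos are pooled and parthenogenetic, differences between single embryos cannot be seen and no paternal genome is present.

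The spliceosome removes introns from nuclear pre-mRNA. The U1 particle binds the start of an intron, U2AF and the U2 particle with its SF3A and SF3B subunits take up the branch point and the end, and the U4/U6.U5 tri-snRNP then joins before the catalytic core is formed. Sm proteins form a ring on U1, U2, U4 and U5 RNA, LSM2 to LSM8 form the matching ring on U6 RNA, and a separate minor spliceosome with U11 and U12 removes a small class of introns. The oocyte stores messenger RNA for such housekeeping machinery, and the embryo lives on that store until its own genome is active.

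Before the members, the target was checked. SIN3A values were 37361, 33964 and 32404 in NC and 3271, 1079 and 4173 in KD replicates 1 to 3, a log2 fold change of -3.81 (adjusted p = 8.45e-06, limma with Benjamini-Hochberg adjustment). Values are read estimates normalized between libraries. From the steps between low values, depth was estimated at 7800000 to 15800000 reads, but only 51.4% to 67.0% of low values fell on a step (within 0.03 of it), so reads could not be counted back. Of 12 oocyte and early embryo markers 10 were in the table, and their summed level was 32127 to 36747 in NC and 33668 to 37568 in KD. Of 12 cumulus and granulosa cell markers 9 were in the table, with a summed level of 44.3 to 81.6 in NC and 62.3 to 99.0 in KD. Of these 9, COL1A2 was the highest, at 23.8 to 53.5 in the 6 libraries. PTX3 was at 0.76 to 2.21 in NC and listed at 0 in all 3 KD libraries, CYP19A1 was at 0 to 3.55 in NC and 3.26 to 10.7 in KD, and FOXL2 reached 13.1 in KD replicate 3. The part of such cells in the members' values was not tested. NLRP5, DAZL, HAS2, FSHR and LHCGR were not found by name. In such bulk samples fewer cells of a type and less RNA per cell cannot be told apart. The study describes the replicates as independent, but neither it nor the labels say what was separate between them (animals, oocyte batches or days), so p-values measure the spread between these libraries.

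None of the 41 members tested was called in KD against NC. The share called over all genes was 0.159% (19 of 11986, adjusted p below 0.05, limma with Benjamini-Hochberg adjustment), and the adjusted p was 0.997 for every member. At an unadjusted p below 0.05, 2 members were higher in KD (PRPF6 and SNRPD2), where 2.24% of all genes were, and 0 were lower, where 2.38% of all genes were. The groups did not overlap for 2 members that were higher in KD (PRPF6 and SF3B2), against 4.85% of all genes, and for 1 that was lower (SF3A3), against 4.94%. In the other 38 members the values of the groups overlapped. These counts are near the shares over all genes. Without KD replicate 3, 5 members had an unadjusted p below 0.05, and without KD replicate 2, 0 did. The share over all genes moved the same way, from 4.61% with all libraries to 6.20% without KD replicate 3 and 3.55% without KD replicate 2. Log2 fold changes were positive in 24 members and negative in 17, and their median was 0.03, beside 0.0026 over all genes tested. Fold changes are on the log2(value + 1) scale, on which the change of a gene with few reads appears smaller.

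The precision sets what these data could have shown. The 95% confidence interval of the log2 fold change lay within 1 in either direction for 40 of the 41 members and within 0.5 for 29. The exception was SNRNP25, a protein of the U11 particle, with an interval of -1.80 to 0.97. The median standard error was 0.14, beside 0.17 over all genes tested. A change of 2-fold or more in either direction therefore lay outside the interval of every member tested but SNRNP25.

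**Figure D1:**
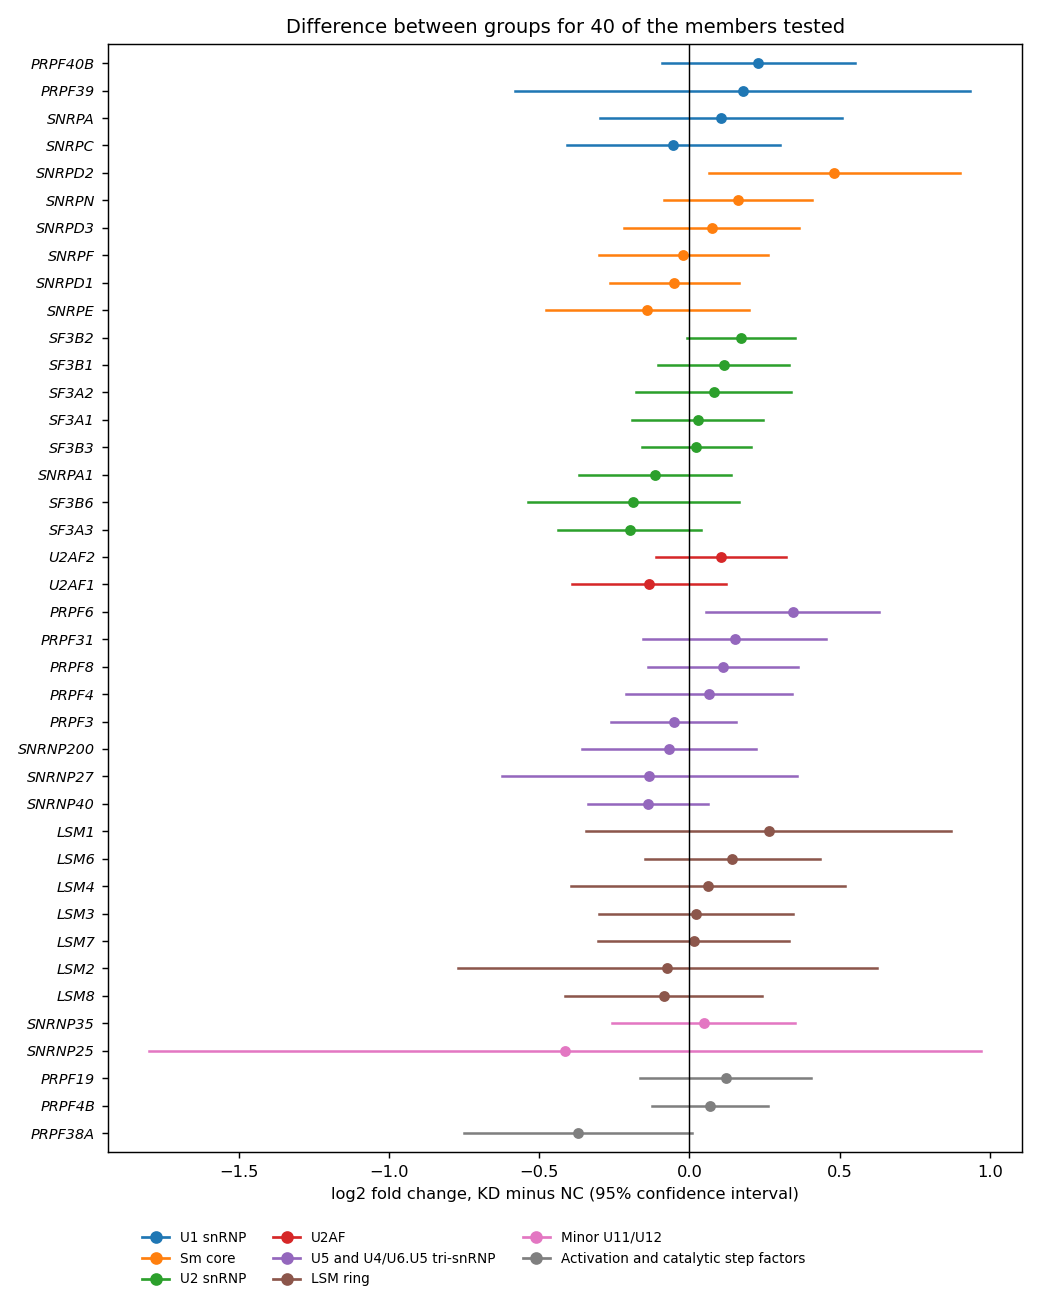
Log2 fold change of KD against NC (x axis, on the log2(value + 1) scale) for 40 of the 41 members tested, 1 per line and coloured by role; points are limma estimates from 3 libraries per group and bars are 95% confidence intervals. The intervals of PRPF6 and SNRPD2 lie above 0, all others drawn include 0, and SNRNP25 has the widest.

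PRPF6 (ENSSSCG00000029119), a scaffold protein that bridges the U5 and U4/U6 particles within the tri-snRNP, had the smallest p of the members. Its values were 225, 214 and 225 in NC and 268, 290 and 287 in KD replicates 1 to 3. All 3 KD libraries were above all 3 NC libraries, and the spread within each group was small. The log2 fold change was 0.34 (SE 0.14, 95% confidence interval 0.06 to 0.63), with an exact permutation p of 0.1, the smallest that 3 against 3 allow. The unadjusted limma p was 0.0218. PRPF6 messenger RNA has a GC content of 62.5%, and after correction for transcript length and GC content the log2 fold change was 0.27 with an unadjusted p of 0.0629. Without NC replicate 2 or KD replicate 2 the unadjusted p was 0.0652 and 0.0621. In Sscrofa11.1 the gene spans bases 62815509 to 62857795 of chromosome 17.

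SNRPD2 (ENSSSCG00000033500, chromosome 6, bases 52035900 to 52042474) encodes SmD2, a subunit of the Sm ring. Its values were 97.3, 137 and 101 in NC and 176, 165 and 126 in KD. KD replicates 1 and 2 were above all NC libraries, and KD replicate 3 lay below NC replicate 2. The log2 fold change was 0.48 (SE 0.20, 95% confidence interval 0.07 to 0.90), the largest positive estimate among the members, with an exact permutation p of 0.2 and an unadjusted limma p of 0.0259. With the correction for length and GC content the log2 fold change was 0.53 with an unadjusted limma p of 0.0119 (adjusted p = 0.674). Without NC replicate 1, NC replicate 3, KD replicate 1 or KD replicate 2 the estimate was 0.39 to 0.44 and the unadjusted p 0.0793 to 0.107. Without NC replicate 2 or KD replicate 3 it was 0.64 and 0.63, with an unadjusted limma p of 0.00856 and 0.00788. The adjusted p in those fits was 0.999 and 0.611.

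**Figure D2:**
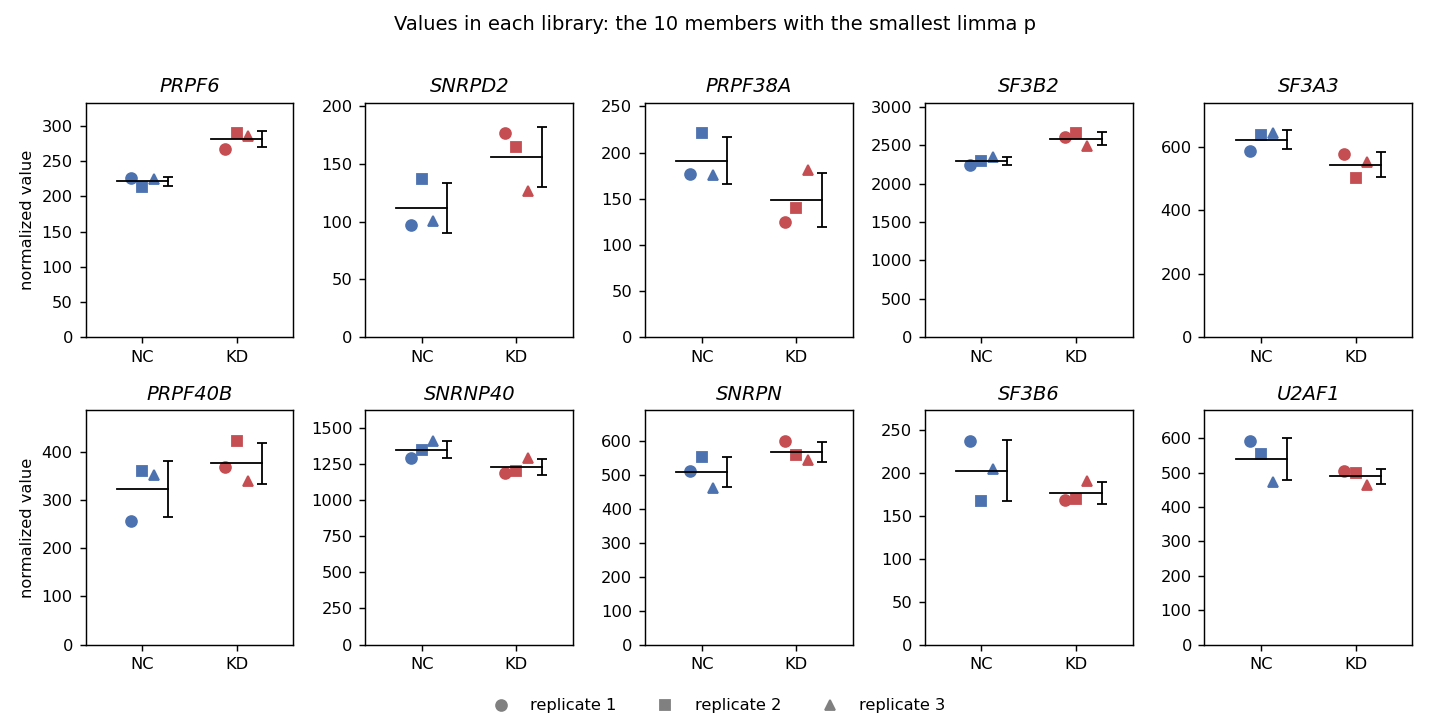
Normalized value (y axis, from 0, a scale of its own in each panel) in each NC (blue) and KD (red) library for the 10 members with the smallest limma p; marker shapes stand for replicates, horizontal lines for means and bars for the SD of 3 libraries. The groups are apart for PRPF6, SF3B2 and SF3A3 and overlap in the other 7.

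The letters at the ends of introns are what the machinery reads, and the members' own genes carry them. The first introns of PRPF6 and SNRPD2, the members with the smallest p, are shown with the first intron of SNRPE, the 1 member intron with both letter runs searched for the minor class. Sequences are from RefSeq on Sscrofa11.1, 5′ to 3′ on the strand of the gene. Capitals mark the first and last 2 bases in PRPF6 and SNRPD2, and in SNRPE the run GTATCC at the start, the run TTAAC near the end and the last 2 bases. The introns are at chr17:62815745-62817353 (plus strand, PRPF6), chr6:52041003-52041431 (minus strand, SNRPD2) and chr9:64560618-64561122 (plus strand, SNRPE).
PRPF6 first 12 bases: GTgaggcctggg
PRPF6 last 40 bases: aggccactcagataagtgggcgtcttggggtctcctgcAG
SNRPD2 first 12 bases: GTagggagacca
SNRPD2 last 40 bases: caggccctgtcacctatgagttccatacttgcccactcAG
SNRPE first 12 bases: GTATCCtactcg
SNRPE last 40 bases: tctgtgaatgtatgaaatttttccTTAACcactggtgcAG

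Of 462 introns in 41 members, 99.6% began with GT and ended with AG, as did 98.9% of 122125 introns of all genes tested. The start GTATCC or ATATCC, searched on the strand of the gene, was found in 4 member introns (0.866%, beside 0.494% of all introns). These were in PRPF3, SNRPE, SNRPD3 and LSM8. SNRPE intron 1 was the 1 member intron that also held TTAAC in its last 40 bases (0.216%, beside 0.182%). Intron 2 of LSM5, a row named by RefSeq and kept apart from the members, held GTATCC and TTAAC too. A match of letters describes the sequence and is no measurement of splicing, and the abundance table gives 1 value per gene and none per intron.

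Most members were above the middle of all genes in level. Per kb of the longest RefSeq mRNA, the mean level of the 40 tested members with a known length ranged from 14.1 to 1449, a 103-fold range. Their median of 297 compares with 61.4 over 10336 genes, and 35 of the 40 were above that median. Among the highest were SNRPD1, a subunit of the Sm ring, at 1449 per kb, and LSM7, of the LSM ring, at 1002 per kb. The lowest were PRPF39, a U1-associated protein, at 14.1 per kb and SNRNP25 at 16.5 per kb. By role, the median per kb was 564 in the Sm core, 454 in the U2 particle, 387 in U2AF and 321 in the activation and catalytic step factors. It was 166 in the U1 proteins, 95.3 in the tri-snRNP, 70.2 in the LSM ring and 68.0 in the minor U11/U12 proteins. The U2AF, activation and minor medians rest on 2 genes each, and those of the other roles on 5 to 8. The 2 minor proteins were at 16.5 and 119 per kb. The Sm ring holds its subunits in equal number, yet their levels ran from 90.6 (SNRPD2) to 1449 per kb (SNRPD1). SNRPN, which encodes a relative of SmB, is set apart from that range, at 65.9 per kb. Levels of the LSM proteins ran from 42.3 (LSM2) to 1002 per kb (LSM7), with LSM1, of the cytoplasmic ring, at 36.4 per kb. These values depend on the transcript length taken, and the longest SNRPN mRNA has 8143 bases.

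**Figure D3:**
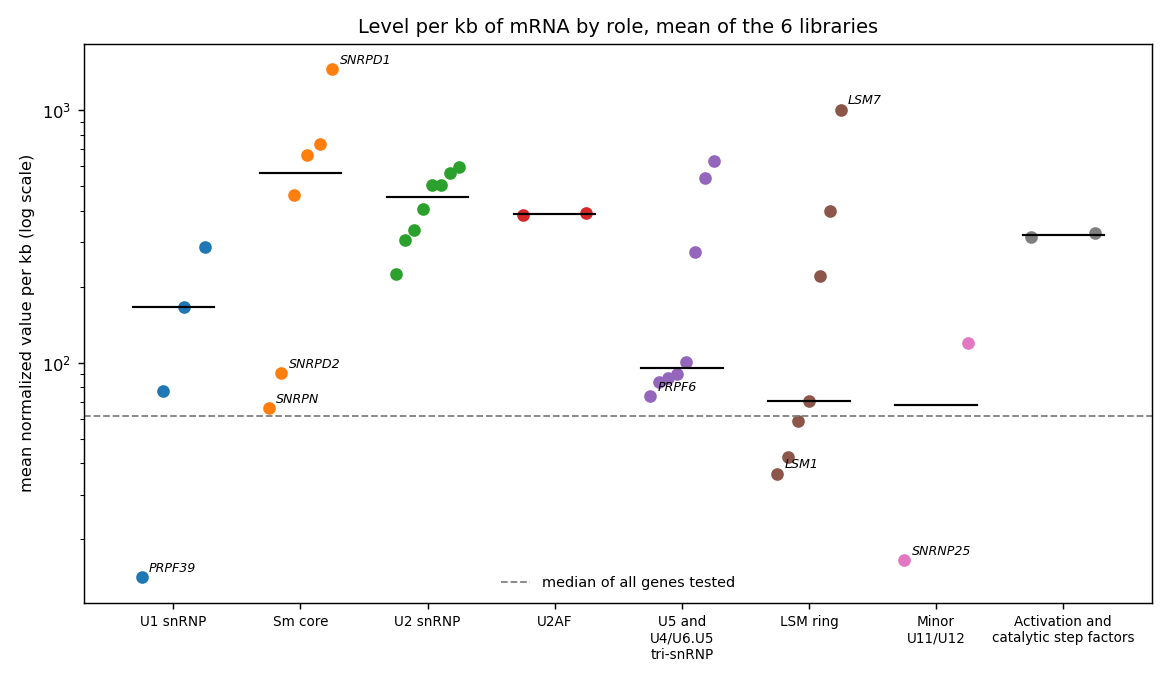
Mean normalized value per kb of the longest RefSeq mRNA (y axis, log scale) for 39 members, each a point, by role (x axis); black lines are the medians per role over 40 members and the dashed line is the median over 10336 genes tested, 61.4 per kb. The Sm, U2, U2AF and activation medians lie above 300, and 5 members lie below the dashed line.

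Among the U1 proteins, 5 were tested and 0 passed at an unadjusted p below 0.05. SNRPA, which binds a stem-loop of U1 RNA, had values of 123, 173 and 113 in NC and 149, 152 and 132 in KD. SNRPC, which steadies the pairing of U1 with the intron start, had 269, 293 and 223 in NC and 314, 209 and 239 in KD. The KD values lay inside the NC range for SNRPA and reached beyond both of its ends for SNRPC, with log2 fold changes of 0.11 and -0.05. PRPF40B, a U1-associated protein with WW domains, had 257, 362 and 352 in NC and 369, 423 and 339 in KD, a log2 fold change of 0.23 (95% confidence interval -0.09 to 0.55). NC replicate 1 stood below the other 5 libraries for PRPF40B. Its mRNA shares 18.9% of its 31-base words with FMNL3 and FAM186B, so some reads may belong to those genes.

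PRPF39, another U1-associated protein, was at 37.3, 51.3 and 30.5 in NC and 35.1, 29.8 and 80.8 in KD. KD replicate 2 was the lowest and KD replicate 3 the highest of the 6 libraries. U1-70K, the U1 protein next to the intron start, is encoded by SNRNP70, which had no row under its name. A row that RefSeq names SNRNP70 had 53.6, 49.6 and 49.7 in NC and 59.8, 64.6 and 103 in KD. All 3 KD libraries were above NC, with replicate 3 far above the other KD libraries. The difference was 0.52 on the log2 scale (95% confidence interval -0.02 to 1.06, adjusted p = 0.997 by limma).

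The Sm core had 6 members, of which SNRPD2 is described above. SNRPN encodes SmN, a relative of SmB, and lies in an imprinted region that is expressed from the paternal allele in human and mouse. It was at 510, 551 and 460 in NC and 599, 558 and 542 in KD of these parthenogenetic embryos. KD replicates 1 and 2 were above all NC libraries and KD replicate 3 lay within the NC range, with a log2 fold change of 0.16 (95% confidence interval -0.09 to 0.41). SNRPB, which encodes SmB and resembles SNRPN closely, was not found by name, and how reads of the pair were assigned is not given in the sources used here. RefSeq places SNRPN on an unplaced scaffold, and 6.29% of its 31-base words occur in SNURF or other genes. SNRPD1, SNRPD3, SNRPE and SNRPF had log2 fold changes of -0.14 (SNRPE) to 0.07 (SNRPD3), and in all 4 the groups overlapped. SNRPF shares 47.0% of its words with CCDC38, which overlaps it, and its value is uncertain for that reason.

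The U2 particle gave the 2 other members whose groups were apart. SF3B2 (ENSSSCG00000012957, chromosome 2, bases 6279039 to 6295550), an SF3B subunit that contacts the pre-mRNA near the branch point, was at 2247, 2294 and 2352 in NC and 2608, 2657 and 2494 in KD. All KD libraries were above all NC libraries, by a log2 fold change of 0.17 (95% confidence interval -0.01 to 0.35, exact permutation p = 0.1). SF3A3 (ENSSSCG00000003643, chromosome 6, bases 93951599 to 93976324), an SF3A subunit that joins SF3A to the U2 RNA core, was at 590, 640 and 644 in NC and 579, 502 and 553 in KD. All KD libraries were below all NC libraries, by a log2 fold change of -0.20 (95% confidence interval -0.44 to 0.04, exact permutation p = 0.1). Both subunits belong to the same particle, and their estimates had opposite signs.

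SF3B1, the largest SF3B subunit, which holds the branch point adenosine, was at 2870, 2477 and 2183 in NC and 2627, 2899 and 2586 in KD. SF3A1 was at 1638, 1756 and 1587 in NC and 1615, 1943 and 1540 in KD. The KD range enclosed that of NC for SF3A1, and the ranges of SF3B1 overlapped, with log2 fold changes of 0.11 and 0.03. SF3B6, the p14 subunit that sits at the branch point, was at 237, 167 and 204 in NC and 168, 170 and 191 in KD (log2 fold change -0.19). SF3A2, SF3B3 and SNRPA1 had log2 fold changes of -0.11 (SNRPA1) to 0.08 (SF3A2) with overlapping groups. SF3B5, a small SF3B subunit, was at 11.6, 14.9 and 4.10 in NC and 9.80, 12.5 and 6.42 in KD and was not tested. The rows that RefSeq names SF3B4 and SNRPB2, also of the U2 particle, had log2 fold changes of 0.03 and -0.09.

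U2AF1, the small subunit that reads the AG at the end of an intron, was at 592, 555 and 471 in NC and 504, 498 and 465 in KD. U2AF2, the large subunit that binds the pyrimidine tract, was at 1135, 1155 and 1076 in NC and 1310, 1075 and 1247 in KD. The groups overlapped in both, and the estimates were -0.14 (95% confidence interval -0.39 to 0.12) and 0.11 (95% confidence interval -0.11 to 0.32). Per kb the subunits of this heterodimer were at similar levels, 390 for U2AF1 and 383 for U2AF2. The row that RefSeq names U2AF1L4 was low, at 13.0 to 15.3 in NC and 14.1 to 33.6 in KD.

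The tri-snRNP had 8 members, all tested, and 1 of them (PRPF6) passed at an unadjusted p below 0.05. PRPF8, the U5 protein that forms the cavity around the catalytic RNA, was at 1874, 1990 and 1916 in NC and 2153, 2489 and 1684 in KD. SNRNP200, the helicase that unwinds U4 from U6, was at 613, 566 and 597 in NC and 678, 590 and 450 in KD. In both the KD libraries spread more widely than NC and KD replicate 3 was the lowest of all 6 libraries. The estimates were 0.11 for PRPF8 and -0.07 for SNRNP200, and without KD replicate 3 they were 0.26 and 0.10. PRPF31, another protein of the tri-snRNP, was at 261, 213 and 252 in NC and 248, 286 and 269 in KD. SNRNP40, a U5 protein, was at 1288, 1349 and 1408 in NC and 1189, 1198 and 1291 in KD. SNRNP40 values of KD replicates 1 and 2 were below all NC libraries and replicate 3 was just above the lowest, a log2 fold change of -0.14 (95% confidence interval -0.34 to 0.06). PRPF3, PRPF4 and SNRNP27 had log2 fold changes of -0.13 (SNRNP27) to 0.07 (PRPF4). PRPF4 shares 36.9% of its words with other genes, RNF183 among them.

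The LSM ring had 7 members, with log2 fold changes of -0.08 to 0.26 and overlapping groups in all 7. LSM1, which replaces LSM8 in the cytoplasmic ring of messenger RNA decay, was at 48.2, 32.4 and 38.8 in NC and 51.7, 37.0 and 55.5 in KD. LSM8, which marks the nuclear ring on U6 RNA, was at 360, 317 and 268 in NC and 346, 250 and 296 in KD. The estimates were 0.26 (95% confidence interval -0.34 to 0.87) for LSM1 and -0.08 (95% confidence interval -0.41 to 0.24) for LSM8. Per kb LSM8 was higher than LSM1, at 220 and 36.4. LSM2 was at 38.9, 33.9 and 37.7 in NC and 47.9, 40.8 and 21.7 in KD, so KD replicate 3 was the lowest and the other KD libraries the highest. The row that RefSeq names LSM5 was at 18.5 to 42.4 in NC and 9.52 to 43.3 in KD.

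Of the minor spliceosome, SNRNP35, a U11/U12 protein related to U1-70K, was at 356, 421 and 347 in NC and 335, 368 and 466 in KD (log2 fold change 0.05). SNRNP25 was at 12.6, 14.8 and 16.7 in NC and 20.5, 22.6 and 2.16 in KD. KD replicates 1 and 2 were the highest and KD replicate 3 by far the lowest, a 10.5-fold range, and the log2 fold change was -0.41 with all libraries and 0.53 without KD replicate 3. At this level few reads were behind each value.

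Of the activation and catalytic step factors, PRPF19, the ubiquitin ligase at the heart of the complex that activates the spliceosome, was at 409, 441 and 581 in NC and 530, 510 and 500 in KD. PRPF4B, a kinase that acts on the tri-snRNP, was at 2290, 2288 and 2549 in NC and 2402, 2381 and 2692 in KD. Both had overlapping groups, with estimates of 0.12 and 0.07. PRPF38A, needed for activation, was at 177, 221 and 175 in NC and 125, 140 and 181 in KD. KD replicates 1 and 2 were below all NC libraries and replicate 3 lay within the NC range, and the estimate was -0.37 on the log2 scale (95% confidence interval -0.75 to 0.01, exact permutation p = 0.3). Without KD replicate 3 it was -0.52. The row that RefSeq names PRPF18, a second-step factor, was at 3622 to 4140 in NC and 3559 to 4366 in KD.

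KD replicates 2 and 3 differed from each other in some members, at a share near that over all genes. KD replicate 3 had the lowest value of 11 of the 41 members and KD replicate 2 the highest value of 11. The same counts were not made over all genes. The KD SD was above the NC SD in 25 of the 41 members (61.0%), beside 49.1% of all genes tested. Between KD replicates 2 and 3, 9 members differed by more than 0.5 on the log2(value + 1) scale, or 22.0% of them, beside 21.5% of all genes tested. In each pair of NC libraries 2 members (4.88%) differed by that much, beside 17.3% to 21.0% of all genes. Between KD replicates 1 and 2, 2 members did (4.88%, beside 17.1% of all genes). Between KD replicates 1 and 3, 7 members did (17.1%, beside 21.7% of all genes). Among members higher in KD replicate 3 were PRPF39 (difference 1.41) and SNRNP27 (0.66), and the lowest there were SNRNP25 (-2.90), LSM2 (-0.88) and SNRPD3 (-0.57). PRPF39 and SNRNP27 have mRNAs of 38.2% and 44.1% GC, and SNRNP25, LSM2 and SNRPD3 of 61.6%, 55.5% and 58.7%. Across 39 members of the same libraries, the difference between KD replicates 3 and 2 had a Spearman rho of -0.46 with GC content, beside -0.18 across 10336 genes, as a description over genes and not over samples. Between KD and NC the rho with GC content was 0.17 across members and 0.21 across all genes, and the rho with transcript length was 0.53 across members and 0.087 across all genes. What part GC content, transcript length or any feature of these libraries has in the members' differences was not tested.

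**Figure D4:**
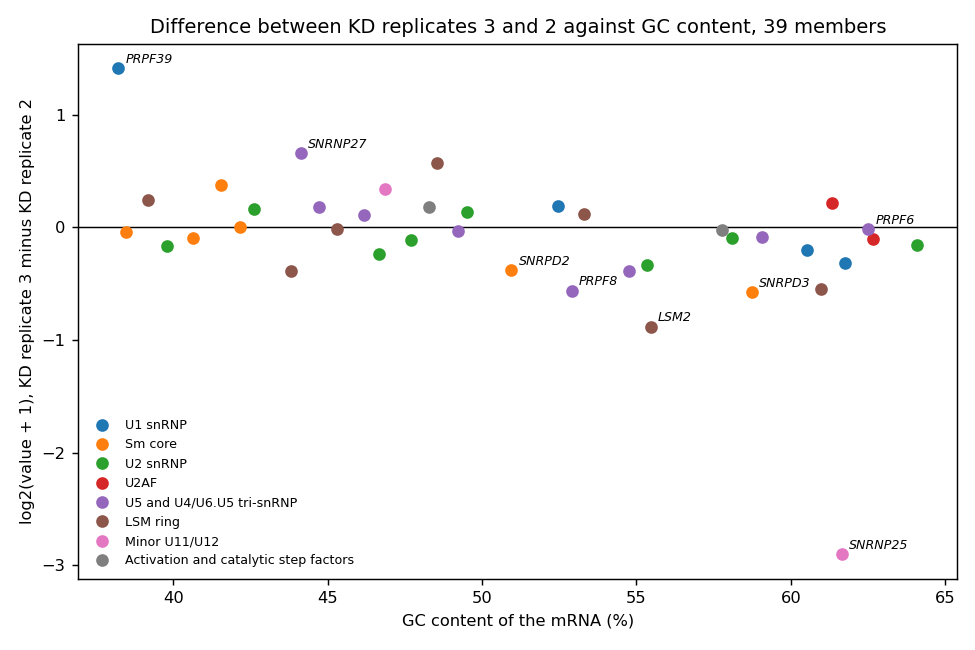
Difference in log2(value + 1) between KD replicate 3 and KD replicate 2 (y axis) against the GC content of the longest RefSeq mRNA in percent (x axis) for 39 members, each a point coloured by role. The AT-rich PRPF39 lies highest and the GC-rich SNRNP25 lowest, with a Spearman rho of -0.46 across the genes.

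Summed over the 42 members, the NC value was 35150 ± 493 and the KD value 35907 ± 1298 (mean ± SD of 3 libraries each), or 0.304% to 0.331% of a library's sum. KD divided by NC was 1.02 for this sum and 0.99 to 1.04 for the sums by role. The lowest and highest sums were in KD replicates 2 and 3.

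Spliceosome proteins outside the naming rule were taken as a separate list of 66 genes, of which 56 were in the table and tested. None was called by limma, and the median log2 fold change was -0.01. At an unadjusted p below 0.05, 0 were higher and 1 was lower, where 2.24% and 2.38% of all genes were. The lower gene was PHF5A, the SF3B subunit that forms the branch point pocket with SF3B1, at 826, 804 and 869 in NC and 729, 633 and 682 in KD. All KD libraries were below NC, with a log2 fold change of -0.29 (95% confidence interval -0.52 to -0.07) and an adjusted p of 0.918 by limma. RBM22 and LUC7L had the next smallest p, with -0.20 and -0.35 and overlapping groups. PLRG1 was the other gene of the list with groups apart, also lower in KD (log2 fold change -0.11). Groups apart were thus 2 lower and 0 higher, against 4.94% and 4.85% of all genes.

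Of 20 genes that assemble or import snRNPs, 17 were in the table and 16 were tested, none was called, and 1 was higher and 2 were lower at an unadjusted p below 0.05. Over all genes 2.24% were higher and 2.38% lower at that threshold. The median log2 fold change was -0.04. WDR77, a partner of the methyltransferase PRMT5 that modifies Sm proteins, was at 94.4, 113 and 111 in NC and 53.7, 56.0 and 82.1 in KD. All KD libraries were below NC, with a log2 fold change of -0.74 (95% confidence interval -1.22 to -0.27, adjusted p = 0.627 by limma). PHAX, the export adaptor of U snRNAs, was at 1749, 1747 and 1884 in NC and 1735, 1485 and 1411 in KD (log2 fold change -0.22). COIL, the scaffold of Cajal bodies where snRNPs mature, was at 31.2, 37.2 and 33.3 in NC and 49.6, 44.6 and 62.5 in KD (log2 fold change 0.60). The groups did not overlap for any of the 3 (over all genes, 4.85% did not overlap with KD higher and 4.94% with KD lower), and the adjusted p of PHAX and COIL was 0.997 by limma.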

How the data were processed

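Poly(A) RNA of 20 embryos per library was isolated, and equal amounts of GFP and RFP mRNA were added, per the labels. These spike-ins were not used here, so total messenger RNA per embryo was not assessed. The paper's methods instead name total RNA isolation, and this difference was not settled here. The length of poly(A) tails was not assessed. The authors quantified reads with Salmon 0.14.1 on porcine transcripts of Sscrofa11.1 and compared groups with DESeq2. The deposited table holds 1 normalized signal value per gene and library, and these values are not counts, so no count test was run. Groups and replicate numbers came from the sample labels.

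Log2(value + 1) of each gene with a mean of 10 or more was fitted by limma 3.58.1 (R 4.3.3), letting the prior variance follow mean expression, and p-values were adjusted by Benjamini-Hochberg over all genes tested. Calls required an adjusted p below 0.05. Exact two-sided permutation tests (smallest p 0.1) used scipy 1.17.1 in Python 3.11.15. The fit was tested on simulated data. Transcript length, GC content, introns and 31-base words shared with other genes came from the longest RefSeq mRNA on Sscrofa11.1, matched by symbol for 86.2% of tested genes. PRPF38A was not matched. Of the rows without a name, 837 were named from RefSeq. The strand setting is not given in the sources used here.

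Members and lists were chosen with earlier results of these data known. Values in every library are given for the 10 members with the smallest limma p, for members set by role, and for the highest, lowest and untested ones. A single member enters the counts, medians and sums and is not reported here otherwise. Other lists give their called genes or else the 3 with the smallest p. The alternatives are given at the end.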

Additional observations from a re-analysis of the deposited data

How the results depend on the processing

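In all 16 alternatives run, 0 members were called, and the smallest adjusted p of any member was 0.37 (limma with Benjamini-Hochberg adjustment, SNRPD2, length and GC correction with the replicate block). The number of members at an unadjusted p below 0.05 was 2 as reported and 1 with the length and GC correction, with or without the replicate block, where SNRPD2 was the one left. Over all genes the share at that threshold was 4.61% as reported, 4.91% with the correction and 7.16% with the correction and the block. Leaving out 1 library at a time gave 0 to 5: it was 0 without KD replicate 2, 1 without NC replicate 2, NC replicate 3 or KD replicate 1, and 5 without KD replicate 3 (PRPF8, PRPF38A, PRPF6 and SNRPD2 among them), while the share over all genes was 3.55% to 6.20%, lowest without KD replicate 2 and highest without KD replicate 3. Over all genes, 19 calls became 0 with no variance trend, 35 with the length and GC correction, 57 with that correction and the replicate block, and 11 to 19 with 1 library left out (11 without KD replicate 2 and 12 without NC replicate 2 or 3). The members' median log2 fold change was -0.0039 to 0.082 with 1 library left out, the highest without KD replicate 3.

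Of 395 comparisons over 25 named genes, 378 kept their direction and their side of the threshold and 17 reversed, 13 of these with 1 library left out. SNRPC became 0.013 and LSM8 0.0082 under the length and GC correction, with and without the block. With 1 library left out, log2 fold changes ranged from -0.295 to 0.259 for LSM2, -0.2002 to 0.033 for LSM8, -0.017 to 0.265 for PRPF8, -0.073 to 0.095 for SF3A1, -0.1996 to 0.095 for SNRNP200, -0.92 to 0.531 for SNRNP25, -0.088 to 0.151 for SNRNP35, -0.016 to 0.289 for SNRPA and -0.216 to 0.075 for SNRPC. The cause was not tested.

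Same-numbered NC and KD libraries had correlations of 0.109, 0.111 and 0.0872 after the group means were subtracted. Their mean was 0.103, and the mean for libraries of other numbers was -0.0513. After the subtraction the 3 libraries of a group sum to 0 for each gene. The second mean therefore follows largely from the first and is no separate comparison. Not every one was above 0.1, and neither the study nor the labels state a pairing, so the main fit took none. These values do not settle whether the samples were paired. All 6 libraries correlated best with their own number in the other group, a hint from the data and not from the design. This count comes from the same linked correlations, so it is not 6 separate observations. With the replicate block, 26 genes and 0 members were called, and 3 members had an unadjusted p below 0.05 (PRPF38A besides PRPF6 and SNRPD2), beside 5.64% of all genes. A count test was not run, because whole reads were not recovered. Genes with low values, such as SNRNP25 and LSM2, had the widest intervals.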
